A study of Mus musculus with 9 samples.

Results

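Adventitial fibroblasts are the matrix-producing cells of the outer coat of an artery, and 10 genes known for high expression in them were read here in RNA flushed from the inner lining of the mouse aorta. The genes are Pi16, Clec3b, Dpt, Pdgfra, Lum, Dcn, Col1a1, Col1a2, Col3a1 and Serpinf1. They were found by symbol in the array's annotation, with the brightest transcript cluster kept for each symbol (a transcript cluster is the array's unit of 1 transcribed locus). Dpt and Col3a1 lie on chromosome 1, Col1a2 on 6, Clec3b on 9, Lum and Dcn on 10, Col1a1 and Serpinf1 on 11 and Pi16 on 17. In all, 9 of the 10 lay on a cluster that names 1 symbol, among 30142 genes with such a cluster, and all 9 were among the 16403 genes tested. Pdgfra lay only on a cluster that also names a microRNA, so no value is given to it as a gene. The names fibroblast and adventitial describe where these genes are known to be expressed, and the cells that gave the RNA were not separated.

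The outer coat of an artery, the adventitia, holds fibroblasts, nerves and immune cells and passes into fat. Its fibroblasts secrete collagen types I and III, which form the fibrils that carry load, and small leucine-rich proteoglycans, which coat those fibrils and set their spacing. Pi16 is widely used to mark a fibroblast state that surrounds vessels, and Pdgfra, the alpha receptor for platelet-derived growth factors, is a general fibroblast marker.

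ACDiEKO mice carried Cdh5-CreERT2, floxed Mef2a, floxed Mef2c and floxed Mef2d. Their recombinase is active in endothelial cells once tamoxifen is given, and it was used to remove these 3 transcription factors of the MEF2 family. Control mice were littermates with the same 3 floxed genes and the same tamoxifen but no recombinase, so effects of the recombinase and of MEF2 loss cannot be told apart. All mice were female and 10 weeks old at tamoxifen, which was injected on 5 successive days. Harvest is given as day 7 in the series text and as day 14 in the protocols of the samples, counted from the first injection. Each array held RNA from 1 thoracic aorta, obtained by flushing lysis reagent through the lumen, which is a rinse and not a cell sort.

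The series has 9 arrays, 5 of ACDiEKO and 4 of control. Array medians of the deposited log2 values were 6.13 to 6.15 in ACDiEKO and 6.17 to 6.23 in control. Precision is limited by how few arrays there are. Between ACDiEKO replicates 1 and 2, bright clusters differed with a robust SD of only 0.071, against 0.268 to 0.401 in the other 15 pairs of arrays of 1 group. These 2 arrays were averaged and counted as 1 sample, which leaves 4 ACDiEKO and 4 control samples. Control replicates 3 and 4 have animal numbers of another run than the other 7 arrays. Defining endothelial markers were present: Cdh5 (VE-cadherin) was 15.62 to 16.06 in ACDiEKO and 15.36 to 15.82 in control, and Pecam1 was 17.07 to 17.35 in ACDiEKO and 17.51 to 17.67 in control.

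Of the genes that changed (below), Pi16 and Serpinf1 had an upstream sequence in the RefSeq table used (GRCm38.p6), which held 6 of the 10 genes. Both are printed from the gene's own strand, up to the outermost annotated start of the gene, to show what lies before a gene that fell and a gene that rose. Capitals mark CCAAT, a common promoter box, and CACCC, the core of sites bound by Krüppel-like factors, which reads GGGTG where it lies on the other strand. The capitalised motifs do not overlap each other.
Pi16, chr17:29318632-29318795, plus strand: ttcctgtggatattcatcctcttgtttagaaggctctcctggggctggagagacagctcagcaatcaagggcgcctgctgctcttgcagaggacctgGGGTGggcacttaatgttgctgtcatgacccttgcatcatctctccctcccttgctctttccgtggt
Serpinf1, chr11:75422624-75422873, minus strand: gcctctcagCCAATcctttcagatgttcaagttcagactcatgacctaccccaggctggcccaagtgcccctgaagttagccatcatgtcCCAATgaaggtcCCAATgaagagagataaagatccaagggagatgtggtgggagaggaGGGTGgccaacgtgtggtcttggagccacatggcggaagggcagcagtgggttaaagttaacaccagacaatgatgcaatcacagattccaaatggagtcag

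Both strands were searched. The 164 bases printed for Pi16 held 1 CACCC, on the other strand, and no CCAAT. The 250 bases printed for Serpinf1 held 1 CACCC, on the other strand, and 3 CCAAT, on the gene's own strand. Neither sequence held TATAAA or the MEF2 consensus. Over 32851 windows of 250 bases in the same table, CACCC was in 52%, CCAAT in 33.8%, TATAAA in 12.4% and the MEF2 consensus in 2.92% on either strand. Over the same windows cut to their first 164 bases, CACCC was in 37.9%, CCAAT in 22%, TATAAA in 7.83% and the MEF2 consensus in 2.02%. That cut leaves out the bases of each window nearest the start, whereas the Pi16 sequence runs up to its outermost annotated start. The windows were not trimmed to such starts, so these shares are not matched to Pi16 in position. These matches describe letters only.

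Setting ACDiEKO beside control asks what changes in the flushed RNA when the lining loses the 3 MEF2 factors, and here which fibroblast genes are among the changes. The 9 genes did not move as a group: Pi16 (-2.41 log2 units) and Clec3b (-1.60) fell, Serpinf1 rose by 0.77, and 6 did not pass the test. The test was limma with Benjamini-Hochberg adjustment over all 16403 genes, and a gene passed at an adjusted p under 0.05. Of all genes tested, 16.3% passed in either direction, 8.92% (1463) higher and 7.33% (1203) lower in ACDiEKO; after median centring the split was 1851 higher and 960 lower. The 3 of 9 stand beside that background, and the median difference of the 9 was -0.01, against -0.03 over all genes tested. In RNA pooled from many cells, fewer cells of a type and less RNA per cell cannot be told apart.

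Pi16 encodes peptidase inhibitor 16, a glycoprotein of the cell surface and secretions. In ACDiEKO it read 7.42 in the averaged replicates 1 and 2, 9.56 in replicate 3, 7.72 in replicate 4 and 7.92 in replicate 5. The control samples read 10.79, 10.45, 10.74 and 10.27 in replicates 1 to 4. All ACDiEKO samples lay below all controls, with replicate 3 closest to them, and a gap of 0.70 separated the groups. The means were 8.16 ± 0.96 in ACDiEKO and 10.56 ± 0.25 in control (SD, n = 4 and 4), and the gene fell by 2.41 (SE 0.43, 95% interval -3.40 to -1.42, limma adjusted p = 0.0086). Without ACDiEKO replicate 3, the difference was -2.88 (limma adjusted p = 0.000843). Without control replicates 3 and 4 together, it was -2.46 and did not pass (limma adjusted p = 0.0704).

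Clec3b encodes tetranectin, a secreted C-type lectin that binds plasminogen. Its ACDiEKO values were 6.71 in replicates 1 and 2, 7.53 in replicate 3, 6.81 in replicate 4 and 7.08 in replicate 5, against control values of 9.07, 8.31, 8.78 and 8.35. Again no sample of one group reached the other, the gap was 0.78, and ACDiEKO replicate 3 was the highest of its group. The means were 7.03 ± 0.37 in ACDiEKO and 8.63 ± 0.37 in control (SD, n = 4 and 4). Clec3b fell by 1.60 (SE 0.23, 95% interval -2.12 to -1.07, limma adjusted p = 0.00377). Without control replicates 3 and 4 together, it fell by 1.66 (limma adjusted p = 0.0364).

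Serpinf1 encodes pigment epithelium-derived factor, a secreted serpin known to restrain vessel growth. It read 9.59, 8.96, 9.45 and 9.15 in the ACDiEKO samples (replicates 1 and 2, 3, 4 and 5), against 8.82, 8.85, 8.21 and 8.20 in control replicates 1 to 4. The groups did not overlap, but only 0.11 separated the lowest ACDiEKO sample from the highest control. The means were 9.29 ± 0.29 in ACDiEKO and 8.52 ± 0.36 in control (SD, n = 4 and 4), and the gene rose by 0.77 (SE 0.21, 95% interval 0.29 to 1.24, limma adjusted p = 0.0395). Control replicates 3 and 4 were both low, and without the pair the difference was 0.45 and did not pass (limma adjusted p = 0.205). The call also ended without control replicate 3 (adjusted p = 0.0938), control replicate 4 (0.0968), ACDiEKO replicate 4 (0.107) or ACDiEKO replicate 5 (0.0589), without both near-identical arrays (0.0973), with no filter on dim genes (0.0863), and with a term for the animal-number run (0.151), all in limma.

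**Figure D1:**
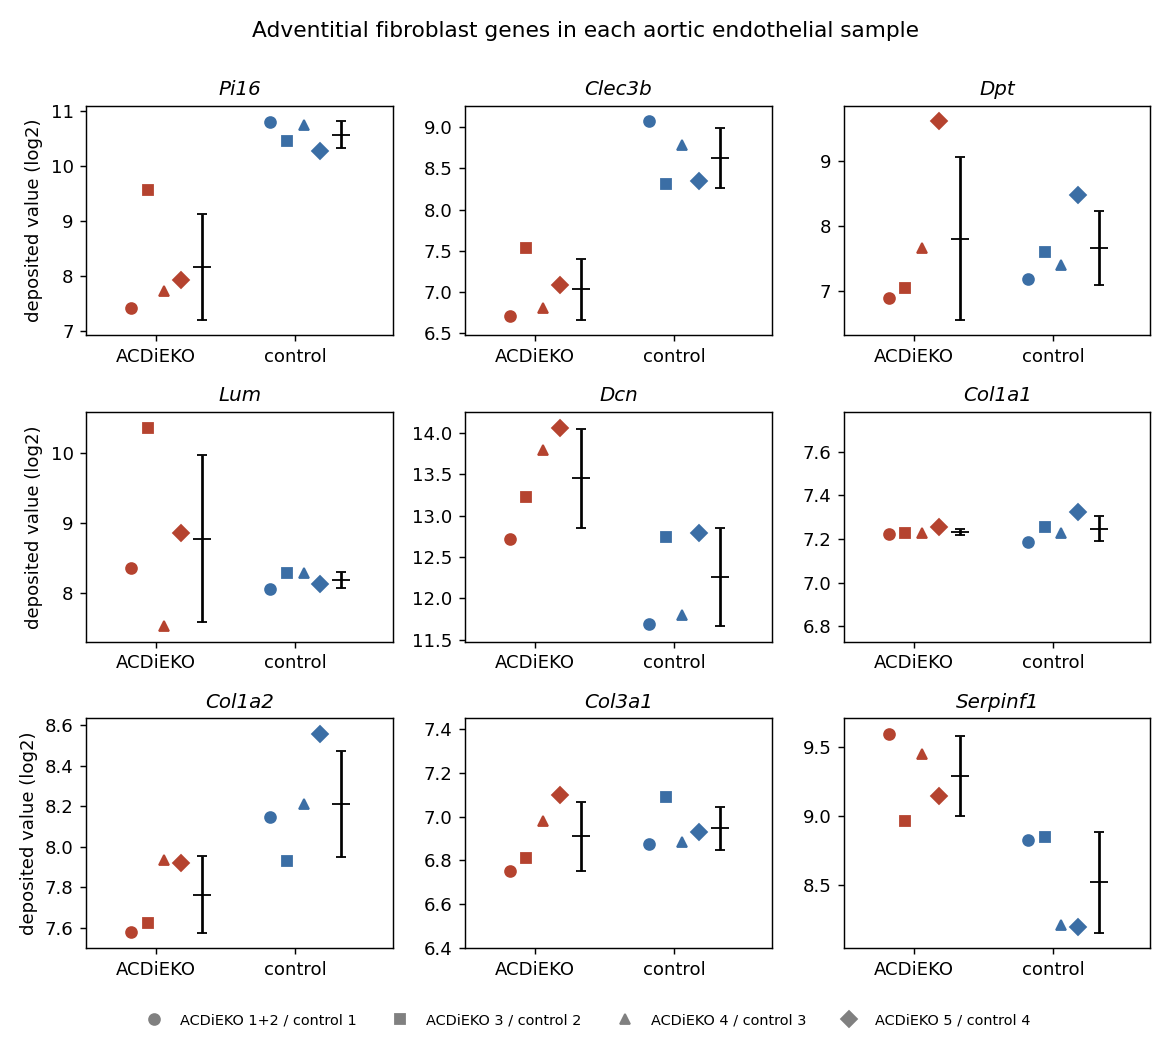
Deposited log2 values of 9 adventitial fibroblast genes in the 4 ACDiEKO (red) and 4 control (blue) samples, with the mean and SD of each group in black; each panel has its own axis, which spans at least 1 log2 unit. Pi16 and Clec3b were lower in every ACDiEKO sample than in any control, Serpinf1 was higher by a gap of 0.11, and the other 6 genes overlapped between groups.

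In 3 of the 9 genes the samples of the groups did not overlap, as in 23% of all genes tested. The 2 small leucine-rich proteoglycans among the 9 overlapped. Dcn encodes decorin, which binds collagen fibrils and transforming growth factor beta. It read 12.71, 13.23, 13.79 and 14.06 in the ACDiEKO samples, against 11.69, 12.74, 11.79 and 12.78 in control replicates 1 to 4. Averaged ACDiEKO replicates 1 and 2 lay among the controls, and the other 3 ACDiEKO samples lay above them. The means were 13.45 ± 0.60 in ACDiEKO and 12.25 ± 0.59 in control (SD, n = 4 and 4), a difference of 1.20 (SE 0.37, 95% interval 0.35 to 2.04) that did not pass (limma adjusted p = 0.0617). It passed after median centring (1.26, adjusted p = 0.0406), after quantile normalization (1.25, 0.0435), under a stricter dim-gene filter (0.0437) and with both near-identical arrays left out (1.44, 0.042), all in limma. It did not pass with any single array left out, where it ran from 0.99 to 1.37 (limma adjusted p = 0.0618 to 0.152), nor with a term for the animal-number run (1.23, 0.154).

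Lum encodes lumican, the relative of decorin that lies next to it on chromosome 10 and also coats fibrils. It was 8.36, 10.37, 7.52 and 8.86 in the ACDiEKO samples, against 8.06, 8.29, 8.29 and 8.13 in controls. ACDiEKO replicate 3 was the highest of all 8 samples and ACDiEKO replicate 4 the lowest, so the control range lay inside that of ACDiEKO. The difference of 0.58 had a 95% interval of -0.61 to 1.78 (limma adjusted p = 0.471). It was 0.05 without ACDiEKO replicate 3 and 1.00 without ACDiEKO replicate 4. The deposited value 8.29 recurred exactly in 3 of the 9 arrays. Of the samples with the most Dcn, ACDiEKO replicates 4 and 5, replicate 4 had the least Lum.

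Dpt encodes dermatopontin, a small matrix protein that binds decorin. Its values were 6.90, 7.04, 7.67 and 9.62 in the ACDiEKO samples, against 7.18, 7.60, 7.40 and 8.49 in controls. A single sample was high in each group, ACDiEKO replicate 5 and control replicate 4. The difference was 0.14 (95% interval -1.23 to 1.51, limma adjusted p = 0.895), and its sign changed under 5 of 23 alternatives, among them without ACDiEKO replicate 5 (-0.46) and without control replicate 1 (-0.02).

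Col1a1 and Col3a1 varied least of the 9. Col1a1, the alpha 1 chain of type I collagen, spanned only 0.14 log2 units over the 8 samples, 7.22 to 7.25 in ACDiEKO and 7.19 to 7.32 in control, and its exact value recurred in 4 of the 9 arrays. Its difference was -0.01 (95% interval -0.15 to 0.12, limma adjusted p = 0.887). Col3a1, the chain of type III collagen, spanned 0.35, with 6.75 to 7.10 in ACDiEKO and 6.88 to 7.09 in control, and differed by -0.04 (95% interval -0.26 to 0.18, limma adjusted p = 0.826). These 2 intervals describe the deposited values and do not show that the 2 genes were unchanged. Whether the probes of Col1a1 and Col3a1 could follow a larger difference in this RNA was not tested.

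Col1a2, the partner chain of Col1a1 in type I collagen, read 7.58, 7.62, 7.93 and 7.92 in the ACDiEKO samples, against 8.15, 7.93, 8.21 and 8.56 in controls. Control replicate 2 lay just below ACDiEKO replicate 4 and the other controls lay above all ACDiEKO samples. The means were 7.77 ± 0.19 in ACDiEKO and 8.21 ± 0.26 in control (SD, n = 4 and 4). The difference of -0.45 (SE 0.15, 95% interval -0.79 to -0.11) did not pass (limma adjusted p = 0.0777). It passed with array weights (-0.50, adjusted p = 0.0493) and with all 9 arrays as samples (-0.48, 0.0342), both in limma. Without control replicates 3 and 4 together it was -0.27 (limma adjusted p = 0.301). Whether the 2 chains of type I collagen differ in their response was not tested.

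The cluster that names Pdgfra together with Mir7025 read 5.27 to 5.38 in ACDiEKO and 5.38 in every control sample. It was above the filter value of 6.165, the median of the whole table, on 0 of 9 arrays and was not tested. Its reading cannot be assigned to Pdgfra alone.

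**Figure D2:**
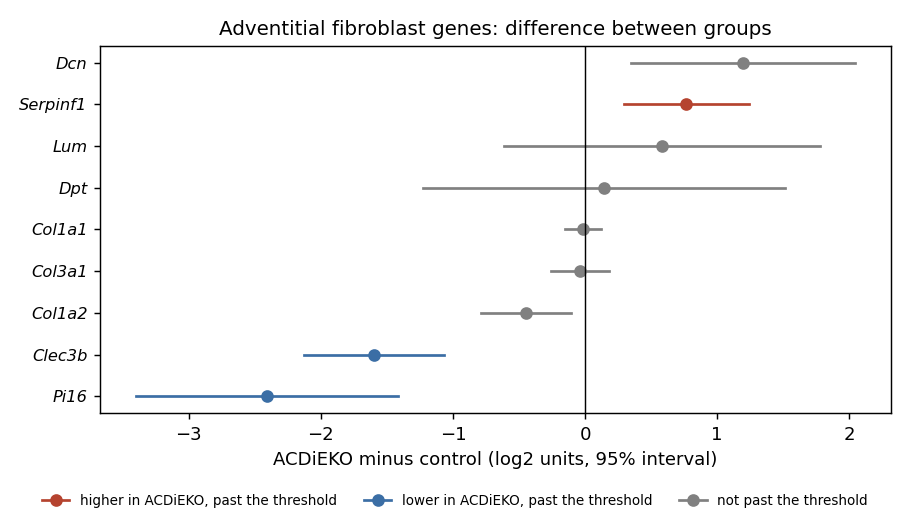
Difference between ACDiEKO and control in log2 units for each of the 9 genes, with the 95% interval from limma; red marks a gene past the threshold and higher in ACDiEKO, blue one past it and lower, grey one not past it. Pi16 (-2.41) and Clec3b (-1.60) lie left of 0, Serpinf1 (0.77) right of it, and the intervals of Col1a1 and Col3a1 are the narrowest.

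The genes were also read as a measure of outer-wall tissue carried into the flush. Their mean over the 9 was 8.14, 8.71, 8.34 and 8.77 in the ACDiEKO samples, against 8.65, 8.72, 8.62 and 8.78 in control replicates 1 to 4. The lowest means were those of ACDiEKO replicates 1 and 2 and of replicate 4, and the other samples lay between 8.62 and 8.78. This mean includes Pi16 and Clec3b, which were lowest in those same samples (Pi16 7.42 and 7.72, Clec3b 6.71 and 6.81). It therefore does not rank carried tissue apart from the fall of those genes. Dcn, by contrast, was 13.79 in ACDiEKO replicate 4, against 11.69 to 12.78 in control.

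Several marker lists of other cells varied more over the samples than this mean, and the Schwann cell and striated muscle lists did not. Schwann cell means were 6.74 to 7.09 in ACDiEKO and 7.15 to 7.34 in control, without overlap. Striated muscle means were 6.31 to 6.48 in ACDiEKO and 6.18 to 6.35 in control. Smooth muscle markers (15 with a value) had means of 9.41 to 10.22 in ACDiEKO and 8.34 to 9.08 in control, without overlap, and 9 of 13 tested rose and none fell, among them Acta2 (3.19), Tagln (3.82), Myl9 (3.68), Smtn (2.04) and Cald1 (1.22), each a part or regulator of the contractile apparatus. The 4 that did not pass were Myh11 (-0.04), the smooth muscle myosin, Cnn1 (-0.27), Itga8 (-0.47) and Mylk (0.43), chosen after their values were seen. In the same fit, 8.92% of all genes tested passed higher in ACDiEKO. Without control replicates 3 and 4 together, limma called 0 of those 13. The mean of this list, though not each of its markers, thus differed between the groups beside Pi16, Clec3b and Serpinf1. With the mean of the tested smooth muscle markers as a covariate, Pi16 differed by -1.14 (limma adjusted p = 0.819), Clec3b by -1.26 (0.582) and Serpinf1 by -0.17 (0.948). In that fit limma called 0 of 16403 genes, with 1300 at an unadjusted p under 0.05, and that covariate and genotype do not overlap.

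Endothelial markers had means of 12.55 to 13.08 in ACDiEKO, and those of control reached 13.35, with control replicates 2 and 4 below ACDiEKO replicate 3. Of 14 tested, 2 rose and 5 fell, where 16.3% of all genes tested passed in either direction. Emcn, a sialomucin, rose by 3.72. Nos3 (nitric oxide synthase, -2.25), the tight junction gene Cldn5 (-3.59), the angiopoietin receptor Tek (-1.92), Mmrn2 (-0.96) and Pecam1 (-0.37) fell. Cdh5 (0.25) did not pass. The part of endothelial content in the differences of Pi16, Clec3b and Serpinf1 was not tested.

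Mesothelial markers, from the sheet that covers the outside of the chest organs, were uneven: their mean was 7.37, 7.55, 9.19 and 9.14 in the ACDiEKO samples and 6.97 to 7.86 in control. None of 9 tested passed limma (2 at an unadjusted p under 0.05), and 1 passed without control replicate 1. Upk3b was 11.16 and 11.49 in ACDiEKO replicates 4 and 5, against 6.98 to 9.84 in control, and Upk1b (1.72), Krt18 (1.99) and Bnc1 (0.57) differed without passing. Msln, at 5.74 to 7.42 in ACDiEKO and 5.53 to 6.82 in control, was not tested. Dcn was highest in the same 2 ACDiEKO samples that were high in mesothelial markers, and the part of that tissue in its values was not tested.

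Brown fat markers, which in this region come with the fat around the aorta, had means of 8.31, 8.81, 6.63 and 8.73 in the ACDiEKO samples, against 8.03, 9.72, 8.23 and 9.87 in control replicates 1 to 4. Ucp1, the uncoupling protein of brown fat, was 7.53 to 13.33 in ACDiEKO and 11.53 to 15.71 in control, and Cidea was 7.76 to 11.21 in ACDiEKO and 8.39 to 12.45 in control. Control replicates 2 and 4 had the most brown fat signal and also the higher Dcn of their group (12.74 and 12.78, against 11.69 and 11.79). The ACDiEKO samples did not share this order. There replicate 4 had the least brown fat signal but more Dcn (13.79) than replicates 1 and 2 (12.71) and replicate 3 (13.23). Of 8 tested, only the deiodinase Dio2 passed (-0.77). Its call ended without each of control replicates 2, 3 and 4 and ACDiEKO replicates 3 and 4 (limma adjusted p = 0.0531 to 0.103). Ppargc1a (-0.79), a coactivator of heat production, did not pass.

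General adipocyte markers had means of 7.08 to 9.28 in ACDiEKO and 7.52 to 9.49 in control, and none of 8 tested passed limma (0 at an unadjusted p under 0.05). Adipoq differed by 0.16, Plin1 by -0.18, Retn by 0.98, Fabp4 by -0.80 and Lipe by -0.42. Dpt was highest in ACDiEKO replicate 5 (9.62), the sample with the highest Adipoq (9.83) and the highest macrophage mean (8.10, against 6.88 to 7.28 in the other ACDiEKO samples and 6.66 to 7.21 in control). Within control these did not go together. Dpt was highest in replicate 4 (8.49), and Adipoq (9.14) and the macrophage mean (7.21) were highest in replicate 2, where Dpt was 7.60. None of 10 macrophage markers tested passed limma (1 at an unadjusted p under 0.05), with Cd68 at 0.81, Adgre1 at 0.89, Csf1r at 0.44 and Lyz2 at 1.43. The part of these cells in Dpt was not tested.

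**Figure D3:**
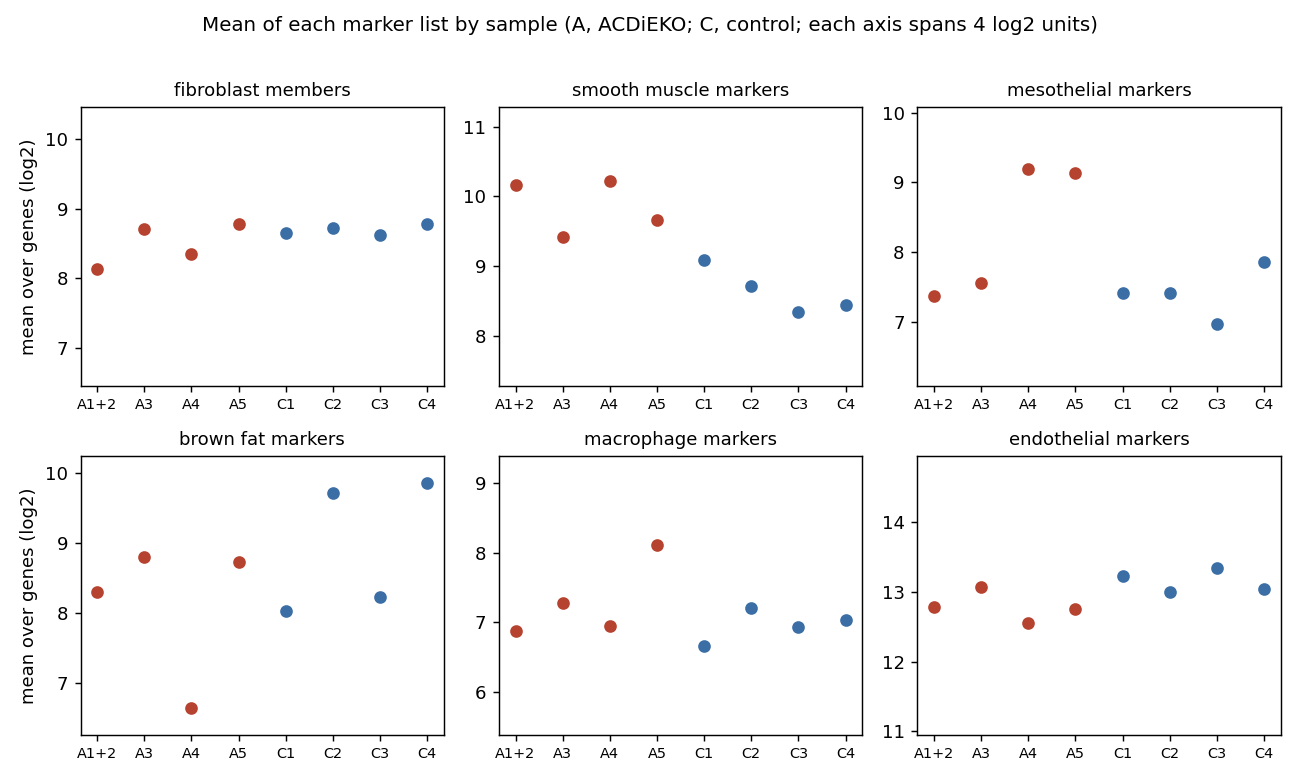
Mean log2 value over the genes of 6 lists in each sample, ACDiEKO (A, red) left of control (C, blue); every panel spans 4 log2 units. The fibroblast mean lies between 8.14 and 8.78, the smooth muscle mean separates the groups, and the mesothelial and brown fat means vary within each group.

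Further lists held few tested genes. T and NK cell markers (3 tested), B cell markers (1 tested) and erythrocyte markers (2 tested) had none past limma's threshold and 0 at an unadjusted p under 0.05. Cd3d differed by 0.45, Cd3g by 0.19, Nkg7 by 0.23, Ighm by 0.71, Alas2 by -0.18 and Slc4a1 by 0.10. Of 3 Schwann cell markers tested, the calcium-binding S100b fell by 1.22, while Pmp22 (-0.59) and Cnp (0.05) did not pass. The S100b call ended without control replicate 2, 3 or 4 or ACDiEKO replicate 4 (limma adjusted p = 0.0667 to 0.0772), and 2 of the 3 passed without ACDiEKO replicate 5. Of 5 striated muscle markers tested, Acta1 rose by 0.91, a call that ended without control replicates 3 and 4 together, and Tnnt2 (0.29) and Mb (-0.23) did not pass. Myh6 (6.10 to 6.18 in ACDiEKO and 5.87 to 6.16 in control) and Myh7 (5.38 to 5.43 in ACDiEKO and 5.38 in control), the heart myosins, were below the filter.

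A wider list of 28 other fibroblast genes was read beside the 9, with 26 on a cluster of 1 symbol and 17 tested. In it 1 rose, 4 fell and 12 did not pass, with a median of -0.21, where 16.3% of all genes tested passed in either direction. Col14a1, a collagen that sits on fibril surfaces, rose by 1.46 (limma adjusted p = 0.0034): it was 8.22 to 9.14 in ACDiEKO and 7.02 to 7.44 in control, without overlap. Fbln2 (fibulin-2, an elastic fibre protein) fell by 1.44 and was 13.47 to 14.48 in ACDiEKO and 14.93 to 15.43 in control. Abi3bp, a matrix protein, fell by 1.29 and was 7.71 to 8.41 in ACDiEKO and 8.72 to 9.91 in control.

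Gsn (gelsolin, an actin-severing protein) and Fap (a surface protease) differed by -0.40 and -0.42, past the threshold. Both calls ended without control replicate 3 or 4 or ACDiEKO replicate 3 or 4, that of Gsn also without control replicate 1, and that of Fap also without control replicate 2 (limma adjusted p up to 0.103). Both calls ended without control replicates 3 and 4 together (-0.26 for Gsn, -0.33 for Fap). The Gsn call also ended after median centring (0.0751) and quantile normalization (0.0509). The count of 5 was 3 without each of control replicates 3 and 4 and ACDiEKO replicates 3 and 4. Among those that did not pass were the type V collagen chains Col5a1 (0.18) and Col5a2 (0.50), Mfap5 (-0.40), Mmp2 (-0.44), Igfbp6 (0.77) and Fbln1 (0.07), chosen after their values were seen. Too few arrays lay above the filter value for a test of Scara5, Dpp4, Sema3c, Smoc2, Thy1, Gas1 and the 3 type VI collagen chains listed, Col6a1, Col6a2 and Col6a3. Dpp4, a surface protease, was nevertheless 6.76 and 6.88 in ACDiEKO replicates 4 and 5, against 6.07 to 6.18 in control. Sema3c, a secreted guidance factor, was 6.42 and 6.78 in the same samples, against 5.77 to 5.96 in control, and these 2 samples were also those high in mesothelial markers. Dpp4 and Sema3c were chosen after their values were seen. Of the other untested genes, only Smoc2 lay above all controls in both samples, by little (6.25 and 6.22, against 6.04 to 6.21). Thy1 was 5.62 in ACDiEKO replicate 4 and 6.17 in replicate 5, against 5.85 to 5.96 in control.

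**Figure D4:**
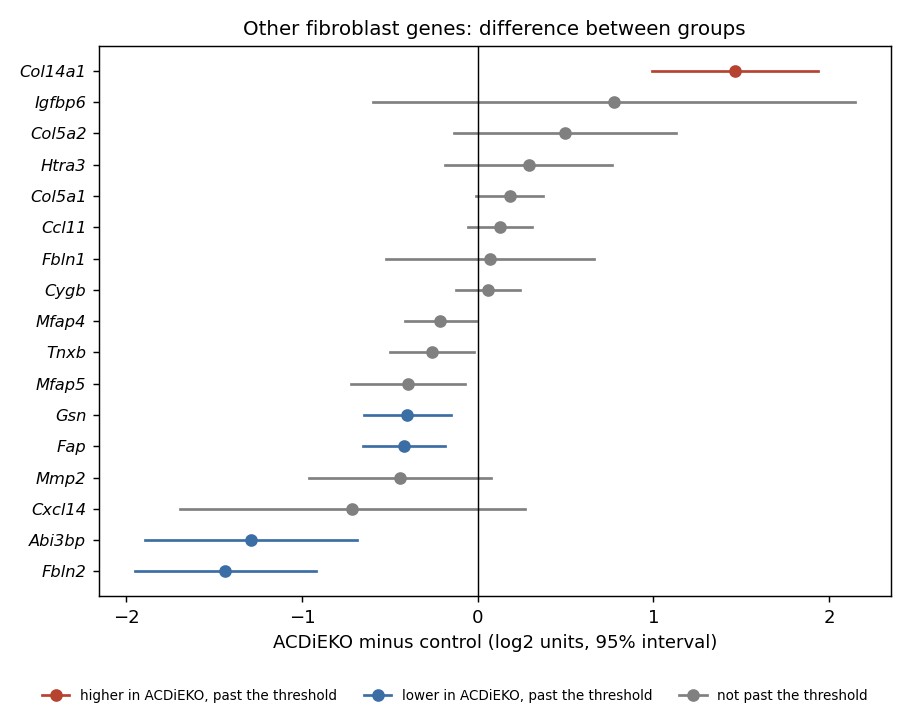
Difference between ACDiEKO and control in log2 units, with 95% intervals from limma, for the 17 tested genes of the wider fibroblast list; colours are as in the plot of the 9 genes. Col14a1 rose (1.46), Fbln2 (-1.44), Abi3bp (-1.29), Fap (-0.42) and Gsn (-0.40) fell, and 12 genes did not pass.

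In the family of small leucine-rich proteoglycans, to which Dcn and Lum belong, none of 9 tested passed limma (3 at an unadjusted p under 0.05), and the median was 0.10; 1 passed without control replicate 3 or without ACDiEKO replicate 5. Omd (osteomodulin) was 10.18 to 11.03 in ACDiEKO and 11.16 to 13.39 in control, a difference of -1.67 without overlap that did not pass (limma adjusted p = 0.0593). Within control it was 13.39 and 13.23 in replicates 1 and 2, and 11.16 and 11.71 in replicates 3 and 4, which differ in animal-number run. Aspn (asporin) differed by -0.44 and Bgn (biglycan), chosen after its value was seen, by -0.04.

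Genes that make and process collagen were read as a list of 27: of 21 tested, 7 rose, 3 fell and 11 did not pass, with a median of 0.22. Of all genes tested, 8.92% passed higher and 7.33% lower in ACDiEKO. The proline hydroxylases P4ha3 (1.93) and P3h2 (1.52) rose, and Sparc, a collagen-binding matrix protein, rose by 0.64 (15.59 to 15.91 in ACDiEKO and 14.98 to 15.30 in control). P4ha2, another subunit of prolyl 4-hydroxylase, fell by 0.94, and Pcolce2, an enhancer of procollagen cleavage, fell by 0.86. The count of 10 was 4 without control replicates 3 and 4 together and 5 with a term for the animal-number run.

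Of the platelet-derived growth factors and receptors, which include the ligands of the receptor encoded by Pdgfra, 5 were tested. Pdgfb rose by 3.05 and Pdgfd by 1.36 (limma adjusted p = 0.0531 without ACDiEKO replicate 4, and 0.90 with adjusted p = 0.092 without control replicates 3 and 4 together), and the beta receptor Pdgfrb, a marker of mural cells, fell by 1.31. Pdgfrb was 9.68 to 10.18 in ACDiEKO and 10.70 to 11.70 in control. The ligands Pdgfa (0.12) and Pdgfc (-0.31), chosen after their values were seen, did not pass.

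The 5 tested genes whose values over the 8 samples were most like the mean of the 9, by Pearson's correlation and given as a description, were Mxd4 (0.983), Per1 (0.930), the pseudogenes Mup-ps18 (0.915) and Fau-ps2 (0.901), and Hpgd (0.900). Before the ranking the 9 themselves were left out. Symbols of gene models, microRNAs, small nucleolar RNAs, olfactory and vomeronasal receptors and some other classes were also left out. Mxd4 encodes a repressor that pairs with MAX, Per1 a component of the circadian clock and Hpgd an enzyme that breaks down prostaglandins. None of the 5 is in the wider fibroblast list. None differed between groups past the threshold in limma (3 at an unadjusted p under 0.05), with differences of -0.17, -0.50, -0.18, -0.33 and -2.19 in that order.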

How the data were processed

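The deposited log2 values were made by the authors with RMA, which the submitters' processing notes name without a version, from 5 ng of RNA per array. They ran from 2.58 to 19.34. A scanner of 16 bits spans 16 log2 units, so a further step not given in the sources used here was applied, and differences are in log2 units of the deposited values, not folds. The array annotation paired 30604 clusters with 1 symbol and 2146 with several; 827 symbols were updated through gene IDs. Clusters with 1 symbol gave 30142 genes by the brightest cluster. Testing was limited to the 16403 genes above 6.165, the median of the table, on 4 or more arrays.

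The comparison used 8 samples and limma 3.58.1 under R 4.3.3 (lmFit and eBayes, two-sided, without covariates). The titles number 2 control arrays 3, and the second is called control replicate 4. The titles' numbers were checked as a pairing: deviations from group means correlated across genes at -0.005, -0.145, 0.035 and 0.041. The check showed no pairing. It cannot exclude one, because 2 controls share the number 3 and ACDiEKO replicates 1 and 2 were nearly identical. The labels give 1 aorta per array. The members, gene lists and tests were chosen with earlier results of these data known. By the rule used, the text names the members and, for each list, the 3 genes of lowest p, or as many as 5 if more passed. It also names the first 2 of each marker list and the 5 most like the members' mean after the stated exclusions. Any other choice is stated beside its values. Upstream sequences are from RefSeq (GRCm38.p6), and figures were drawn with matplotlib 3.10.9.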

Additional observations from a re-analysis of the deposited data

Results flagged for a closer look

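In 182 sets of 4 samples of 1 group, the highest or lowest sample was checked for standing far from the other 3. The sets were each list mean and each gene named by the rule above, per group. Genes given outside that rule, such as Igfbp6, Bgn and Klf4, were not checked. Chance marks about 1 set in 20, and 15 were marked.

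Col1a1 was marked for ACDiEKO replicate 5 (7.25, against 7.23 in the next sample). ACDiEKO replicate 5 also stood above its group in leukocyte genes: the mean of B cell markers (6.80, next 5.89), Cd79a (6.91, next 5.97), Ighm (11.18, next 8.19), Cd3d (8.65, next 6.18) and Csf1r (7.08, next 6.33), and in Retn (9.72, next 7.22) and Myh7 (5.43, next 5.38). It was also the ACDiEKO sample with the most Dpt (9.62) and Dcn (14.06). Without it, the count of the 9 fibroblast genes past the threshold was 2, Pi16 and Clec3b.

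Ucp1 was far lower in ACDiEKO replicate 4 (7.53, next 12.42), and P3h2 in ACDiEKO replicate 3 (10.29, next 10.97). Among controls, Mmrn2 was low in replicate 4 (15.26, next 15.70), Tek was high in replicate 3 (15.84, next 15.24), Pmp22 was high in replicate 1 (13.48, next 13.01), Cd3e was low in replicate 2 (5.69, next 5.88) and Mup-ps18 was high in replicate 4 (6.95, next 6.52).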

How the results depend on the processing

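Of the 9 fibroblast genes, 3 passed, and leaving out 1 array at a time gave 2 to 3. The count was 5 at an adjusted p of 0.1 (Dcn and Col1a2 added), 1 without control replicates 3 and 4 together (Clec3b), and 0 with the smooth muscle mean as a covariate (limma; 2 of the 9, Clec3b and Lum, at an unadjusted p under 0.05). With the replicate block (titles' numbers, 9 arrays) it was 4, with Col1a2 added (-0.58), and Dcn (0.67) and Lum (0.97) did not pass. Without control replicates 3 and 4 together the calls of Pdgfd, Gsn, Fap, Dio2, S100b and Acta1 ended, as they did (Pdgfd at adjusted p = 0.0532) with a term for the animal-number run. With the covariate, 2 called differences changed sign, Serpinf1 (-0.17) and Dio2 (0.034). Over 24 alternatives Pi16 kept its call in 22 (-2.88 to -1.14) and Serpinf1 in 14; over 23, Clec3b kept its call in 22 (-1.76 to -1.26); the stricter filter on dim genes left Clec3b untested. All genes past the threshold numbered 2666, and 0 to 4045 over the alternatives, 1035 at an adjusted p of 0.01, 1127 without that pair of controls, 1692 with a term for the animal-number run and 1680 without ACDiEKO replicate 4. Higher and lower calls numbered 1970 and 1038 after quantile normalization. The wider fibroblast list (5) gave 2 at 0.01 and 3 under the stricter filter, without both near-identical arrays and under both animal-number alternatives; collagen processing (10) gave 4 at 0.01 and 6 with the block. Except as stated, causes of these changes were not tested.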

Other observations

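ACDiEKO replicate 3, the ACDiEKO sample with the most Pi16 (9.56) and Clec3b (7.53), was also the highest of its group in 3 genes of the lining's response to flow, chosen after their values were seen. Klf4, a transcription factor induced by laminar flow, was 9.86 in it, against 7.54 to 9.06 in the other ACDiEKO samples and 12.54 to 12.77 in control. Klf2, its relative, was 8.13, against 6.56 to 7.93 in the other ACDiEKO samples and 10.53 to 11.31 in control. Klk10, a secreted serine protease, was 10.27, against 7.39 to 8.60 in the other ACDiEKO samples and 12.93 to 14.18 in control. The same sample was lowest of the ACDiEKO samples in smooth muscle mean (9.41; the other 3 had 9.66 to 10.22, and controls had 8.34 to 9.08), and the relation between these values was not tested.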
